A study of Mus musculus with 2 samples.

Results

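Of 10821 called bone marrow LSK cells from 2 libraries of chronic myeloid leukemia (CML) mice, 277 passed a gate for hematopoietic stem cell (HSC)-like cells without Mki67, 233 of them in miR-142 WT CML and 44 in miR-142 KO CML. LSK cells are the Lin-Sca-1+c-Kit+ fraction, in which stem cells and the earliest progenitors reside. A called cell was a barcode with at least 8000 unique molecular identifiers (UMIs, counted RNA molecules) and under 10% mitochondrial UMIs. The gate required at least 1 UMI in 3 or more of the stem cell genes Mecom, Procr, Fgd5, Mllt3, Pdzk1ip1 and Slamf1. It also required fewer than 10 UMIs per 10000 of Elane, Mpo, Prtn3 and Ctsg together, genes of neutrophil granules, 0 UMIs of the proliferation gene Mki67, and fewer than 3 of the megakaryocyte genes Pf4, Cavin2, Gp1bb, Treml1 and Gp5 detected. Hlf, a stem cell transcription factor, took no part in the gate. The cells were thus selected on their UMI counts of the gate genes, and levels of the gate genes are given as a description only.

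The comparison asks what loss of miR-142 does to the stem cells from which CML arises. Both libraries came from BCR-ABL+ mice 8 to 10 weeks old, of the SCLtTA/BCR-ABL strain on a C57BL/6 background, in which withdrawal of tetracycline switches BCR-ABL on. Cells were taken 2 weeks after withdrawal, so the transgene had been induced in both groups. The miR-142 WT CML library represents chronic phase CML and the miR-142 KO CML library, from Mir142 KO BCR-ABL+ mice with germline loss of both alleles, represents blast crisis. Regulatory sequence of Scl drives the transactivator in stem and progenitor cells, and BCR-ABL itself was not measured cell by cell here. There was 1 library per group and the number of mice in each was not stated, so no test was run and mice cannot be told apart from genotype. Intervals are 95% intervals that cover counting error only.

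HSCs sustain blood formation for life, divide rarely, and are held in this state by transcription factors such as Hlf, Meis1 and Mycn and by cytokine signals from the marrow niche. In CML, BCR-ABL signals through STAT5 and related pathways, and quiescent leukemic stem cells outlast kinase inhibitors. miR-142 is a microRNA largely restricted to blood cells. Its precursor gives 2 mature strands, which lower the messages that carry a match to the seed, bases 2 to 8 of the strand.

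The sequences of both strands are shown because the genotype removes them and the target sites given later are read against their seeds. In RefSeq (GRCm38.p6), the 5p strand lies at chr11:87756867-87756887 and the 3p strand at chr11:87756903-87756925, both on the plus strand, with the seed in capitals:
mmu-miR-142a-5p: cAUAAAGUagaaagcacuacu
mmu-miR-142a-3p: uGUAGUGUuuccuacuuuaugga

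The knockout was checked inside the gated cells first. Mir142hg (ENSMUSG00000084796), the long noncoding host transcript that contains both strands, spans 87755577 to 87757270 of chromosome 11 (GRCm38), plus strand. In WT, 44 of 233 gated cells held 52 Mir142hg UMIs, or 16.6 CPM (UMIs per 1000000 UMIs of the gated cells). In KO, no Mir142hg UMI was found in 44 cells, which against a floor of 3 counts bounds the log2 ratio of KO over WT at -1.70 or lower. Over all other called cells, where more UMIs were counted, the log2 ratio was -6.14. Tspoap1, the next gene on the same strand (chromosome 11, 87760541 to 87785928), showed the opposite pattern, with 1 UMI in WT and 218 UMIs in 43 of 44 KO cells (0.320 and 373 CPM). In free RNA of the KO library, taken from barcodes with up to 100 UMIs, Tspoap1 stood at 356 CPM, so its level in the gated cells was close to that in free RNA. With the free RNA profile subtracted from the sums of all gated cells, the log2 ratio of Tspoap1 was 10.74, against 10.19 without. Supt4a, a transcription elongation factor gene on the other side of Mir142hg, differed little, at a log2 ratio of -0.18 (-0.54 to 0.17).

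Cells passing the gate were scarcer in KO. The gated cells made up 4.34% of 5363 called WT cells (3.81 to 4.92) and 0.806% of 5458 called KO cells (0.586 to 1.08). At the first step, 746 WT cells and 195 KO cells had 3 or more stem cell genes. The granule limit then removed 227 of these cells in WT (30.4%) and 119 in KO (61.0%). Elane, Mpo, Prtn3 and Ctsg encode the proteases and peroxidase of primary neutrophil granules, and their summed level in free RNA was 58.5 UMIs per 10000 in WT and 135 in KO. The share of this step that came from free RNA was not tested. Absence of Mki67 removed 271 of 519 WT cells and 26 of 76 KO cells, and the megakaryocyte limit removed 15 and 6 more. When every cell was thinned to 8000 UMIs before gating, 126 WT and 26 KO cells passed.

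Depth was similar in the gated cells of both libraries, at 12259 UMIs and 3486 genes for the median WT cell and 12326.5 UMIs and 3488 genes for the median KO cell. The cells outside the gate had medians of 19943.5 and 24400.5 UMIs. Summed over cells, the gated cells held 3125390 UMIs in WT and 585026 in KO, so the KO sums set the precision of each ratio. Median mitochondrial shares were 3.14% and 2.63%. The libraries shared 4 called barcodes, none of which belonged to a gated cell.

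The label of HSC-like cells was checked on 13 stem cell markers that took no part in the gate. All 13, among them Hlf, Meis1, Mycn, Hoxa9, Hoxb5, Tek, Esam, Ctnnal1, Sult1a1, Ly6a, Angpt1 and Cd27, were detected in both libraries, and 10 of 13 were at least 2-fold over all other called cells in WT and in KO. Short of 2-fold were Hoxa9, Ly6a and Cd27 in WT and Hoxa9, Ctnnal1 and Cd27 in KO. Hoxa9 in KO was lower than in the other called cells, at 42.7 against 51.2 CPM. Hoxb5, Tek and Ctnnal1 rested on 3, 4 and 3 KO UMIs. Late neutrophil genes were near 0, with 9 of 13 at 0 in WT and 10 of 13 in KO and at most 1.39 UMIs per 10000 in any cell. The T cell genes Cd3e, Cd3d and Cd3g had no UMI in KO. Thy1, also counted with the T cell genes, had 65 UMIs in 39 of 233 WT cells and 0 UMIs in the 44 KO cells. Stromal genes reached at most 3.25 UMIs per 10000, endothelial genes 9.65 and antibody-secreting cell genes 14.2, each highest in a WT cell. Monocyte genes reached 17.3 in WT and 25.9 in KO, erythroid genes 34.4 and 48.3, and megakaryocyte genes outside the gate 12.3 and 31.4. Summed over cells, erythroid genes stood higher in the gate than in other called cells, at 824 against 399 CPM in WT and 562 against 280 CPM in KO. Megakaryocyte genes did too, at 348 against 166 CPM and 932 against 154 CPM.

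A subset of the KO cells went against the label. Mast cell genes exceeded 20 UMIs per 10000 in 10 of 44 KO cells (22.7%, 11.5 to 37.8) and in 2 of 233 WT cells (0.858%, 0.104 to 3.07), and their sum reached 309 to 1050 per 10000 in those KO cells. Such cells made up 4.20% of all called WT cells and 6.69% of all called KO cells, and innate lymphoid gene-high cells 0.149% and 2.73%. Each of the 10 cells held Cma1, Cpa3 and Fcer1a, which encode mast cell chymase, carboxypeptidase and the IgE receptor alpha chain, with 6126, 5571 and 1161 UMIs in all. Cma1 made up 33064 CPM in these cells, 778 CPM of KO free RNA and 3 UMIs in the KO cells outside the subsets. All 10 passed through Mecom, Mllt3 and Pdzk1ip1, and none had a UMI of Procr, Fgd5 or Slamf1. Hlf was detected in 1 of the 10. These cells are called mast gene-high here.

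Genes of innate lymphoid cells exceeded 10 UMIs per 10000 in a further 5 KO cells (11.4%, 3.79 to 24.6) and in no WT cell outside the mast gene-high cells (0 of 233, which at 3 counts of 233 allows a share of up to 1.29%). Mast gene-high cells held such genes too, at 11.4 to 35.1 per 10000 in KO and at 33.3 in 1 WT cell. All 5 held Il7r, the interleukin 7 receptor, Il1rl1, the interleukin 33 receptor, Il2ra and Gata3, with 37, 26, 16 and 25 UMIs. Il7r, Il1rl1 and Il2ra had no UMI in the KO cells outside these subsets. All 5 also held Hlf, against 1 of the 10 mast gene-high cells, and Cd34, a progenitor surface protein, was found in 4 of the 5 and 7 of the 10. The plot of other-cell genes per gated cell shows where both subsets lie. They were defined by the same sums that the plot shows, so their separation from the rest follows from the definition. The same holds for high levels of the genes in those lists.

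**Figure D1:**
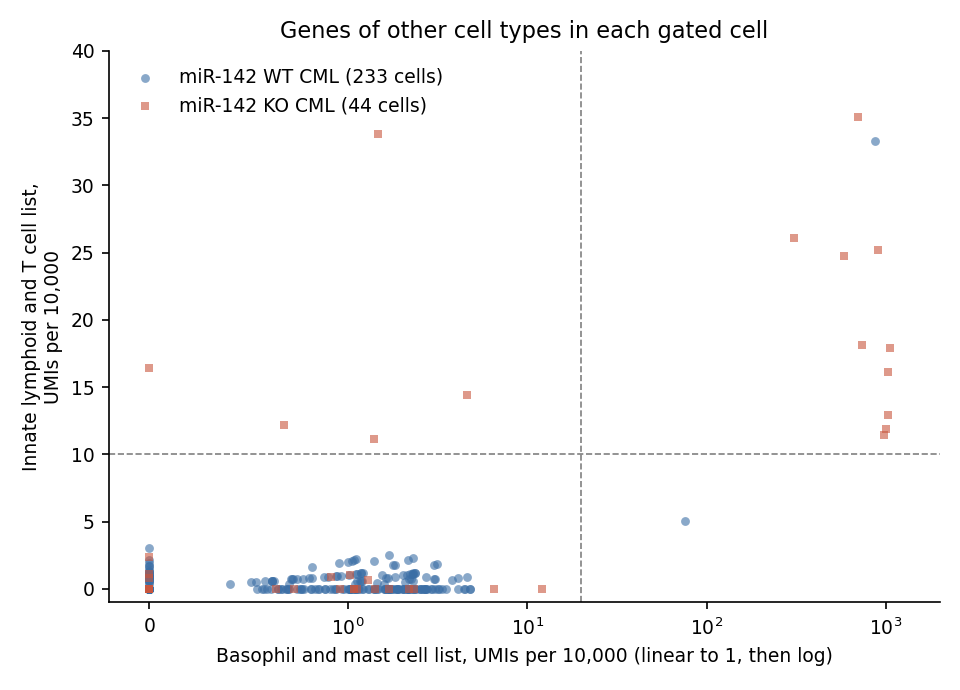
Summed UMIs of mast cell genes and of innate lymphoid genes per 10000 UMIs in each gated cell, with WT and KO cells marked, a mast axis that is linear to 1 and logarithmic beyond, a linear lymphoid axis and dashed lines at 20 and 10. The 10 mast gene-high KO cells lie between 309 and 1050 on the mast axis, and the 5 innate lymphoid gene-high KO cells lie between 11.1 and 33.8 on the other.

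Levels are therefore given for the remaining 231 WT and 29 KO cells without these subsets, a choice made after seeing the data, and beside them for all gated cells where the subsets changed a value most. The remaining cells made up 4.31% of called cells in WT and 0.531% in KO. Their median depth was 12217 UMIs (WT) and 9797 UMIs (KO), and their KO sum was 325287 UMIs. In them the mast gene sum reached at most 12.1 per 10000 and the innate lymphoid sum at most 2.37 in KO. Of the 13 stem cell markers outside the gate, 10 in WT and 11 in KO were at least 2-fold over the other cells. Among these 11, Hoxb5, Tek, Ctnnal1 and Sult1a1 rested on 2, 4, 3 and 5 KO UMIs. Ctnnal1 had the same 3 UMIs in all gated KO cells, where it fell short of 2-fold. In KO, Ly6a stood 0.99 over the other cells on the log2 scale and fell short of 2-fold, against 2.39 for all gated cells.

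Few gated cells held G2/M genes at the level outside the gate, but a larger share did so for S phase genes. Summed G2/M genes had a median of 17.97 UMIs per 10000 in the remaining WT cells and 18.4 in KO, against 51.0 and 51.2 outside the gate, and 3 of 231 WT and 0 of 29 KO cells exceeded the median outside the gate. Cells excluded only for Mki67 had G2/M medians of 123 in WT and 136 in KO. Summed S phase genes, which serve DNA replication, had lower medians in the gate, 15.1 in WT and 9.27 in KO against 31.0 and 28.2. Yet 64 of 231 WT cells (27.7%) and 7 of 29 KO cells (24.1%) exceeded the S phase median outside the gate, and the highest WT cell reached 87.4.

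Among genes outside the gate, those with the largest level over all other called cells in both libraries included several known from stem cells. Mycn, a Myc family transcription factor of stem cells, stood 2.74 higher on the log2 scale in WT and 4.26 higher in KO. Esam, an adhesion protein of HSCs and endothelium, stood 2.15 and 3.47 higher. Gng11, a G-protein gamma subunit, stood 1.80 and 3.91 higher. Nkx2-3, a homeobox factor, stood 1.91 and 2.06 higher, and Gimap6, a GTPase of the immunity-associated family, 1.71 and 2.58. The cells outside the gate differed between the libraries in their granule content, so these contrasts have unlike comparators.

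Because detection depends on depth, shares of cells with a UMI were compared after thinning to 8000 UMIs, beside granule-high cells (at least 100 granule UMIs per 10000), which should lack stem cell genes. Before thinning, granule-high cells had median depths of 60154 UMIs in WT and 43601.5 in KO. Among the remaining cells Mycn was found in 48.1% in WT (41.5 to 54.7) and 48.3% in KO (29.4 to 67.5), against 1.33% and 0.150% of granule-high cells. Esam was likewise near level, at 39.0% (32.6 to 45.6) and 37.9% (20.7 to 57.7). For both genes the KO intervals were wide and contained the WT shares.

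Hlf and Gimap6 were detected in fewer KO cells. Among the remaining cells Hlf was found in 63.6% in WT (57.1 to 69.8) and 41.4% in KO (23.5 to 61.1), and outside the gate in 41.1% and 14.1%. Granule-high cells had it in 5.69% and 4.04%, so both gated shares stood above background. Gimap6 was found in 62.3% (55.7 to 68.6) and 27.6% (12.7 to 47.2), with 1.14% and 1.20% in granule-high cells. Meis1, a Hox cofactor, was found in 84.8% (79.6 to 89.2) and 75.9% (56.5 to 89.7). With no cell set aside, Hlf was found in 63.9% in WT and 36.4% in KO.

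**Figure D2:**
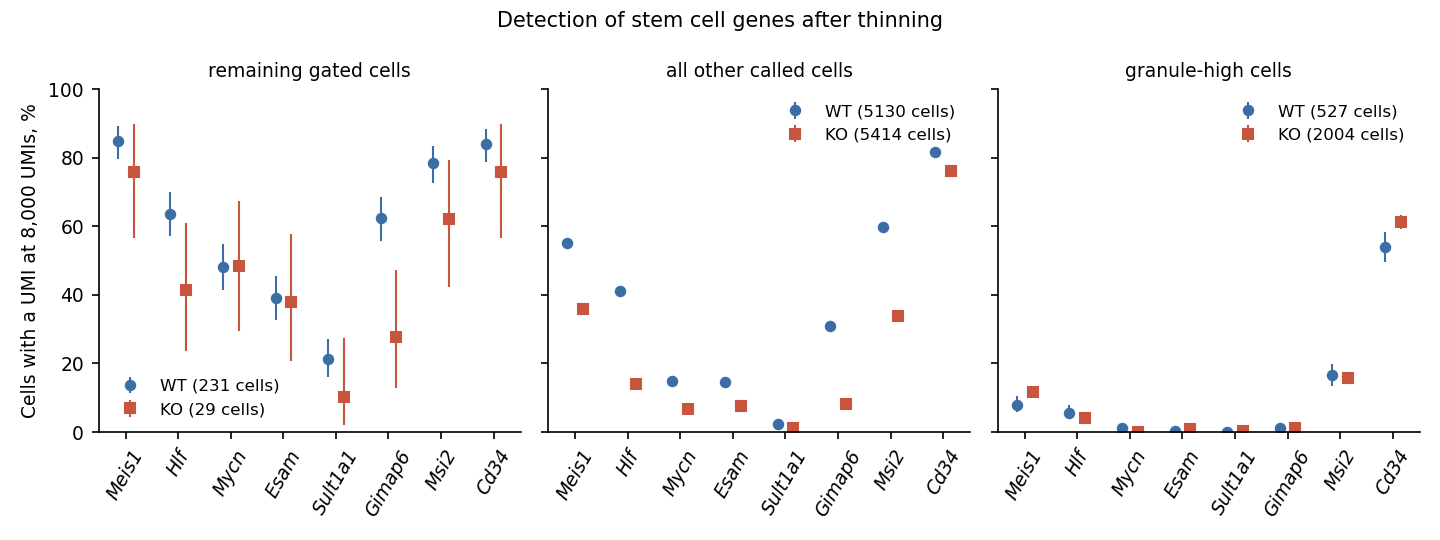
Share of cells with at least 1 UMI of each gene after thinning to 8000 UMIs, with exact 95% binomial intervals as bars, for the remaining gated cells, other called cells and granule-high cells of each library. Mycn is level between WT (48.1%) and KO (48.3%), while Hlf is at 63.6% and 41.4%.

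Across all genes, KO and WT were compared on UMIs summed over the gated cells of each library. A gene counted as measured at a mean of 10 CPM over both libraries, and gate genes were left out. In all gated cells 588 of 8082 measured genes (7.28%) had a KO level 2-fold or more above WT and 489 (6.05%) a level 2-fold or more below, with a median log2 ratio of -0.09. In the remaining cells the counts were 393 of 8036 (4.89%) and 436 (5.43%), with a median of 0.02. Few of these genes were well covered. At a mean of 50 CPM or more, 43 of 2831 genes (1.52%) were 2-fold or more up in the remaining KO cells and 18 (0.636%) down. At 1.5-fold the shares of these 2831 genes were 7.49% up and 4.03% down. The shares of all genes given beside lists below include genes with few KO UMIs.

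After Tspoap1, several of the genes furthest up in KO in all gated cells had most of their UMIs in the mast gene-high cells. Gzmb, which encodes granzyme B, had 13 UMIs in WT and 870 in KO, of which 862 came from the mast gene-high cells. Tph1, the enzyme that starts serotonin synthesis in mast cells, had 16 and 387 UMIs, and the chemokine gene Ccl2 had 23 and 456. Cdkn2a, the Ink4a/Arf tumor suppressor locus, had 1 and 107 UMIs, all 107 in 6 mast gene-high cells. The mast cell protease gene Mcpt4 had 21 and 360 UMIs, with 80.6% of the KO UMIs in 1 cell, and in the remaining cells it had 21 and 1. Il2ra, the interleukin 2 receptor alpha chain, had 5 and 94 UMIs, of which 78 came from the mast gene-high cells and 16 from the innate lymphoid gene-high cells. At the other end, Mmrn1, an adhesive protein of platelets, HSCs and endothelium, had 90 UMIs in 71 WT cells and 1 in KO.

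In the remaining cells, Tspoap1 again had the highest ratio, with 1 and 90 UMIs. Hes1, a transcriptional target of Notch, had 55 UMIs in WT and 30 in KO, a log2 ratio of 2.36 (1.67 to 3.03). Itgb3, the integrin that pairs with Itga2b on megakaryocytes and with alpha V on HSCs, had 27 and 16 UMIs (2.48, 1.49 to 3.42). Id3, an inhibitor of helix-loop-helix factors, had 5 and 8 UMIs (3.91, on few counts). Among the lowest, Socs2, a STAT5-induced brake on cytokine signaling that marks HSCs, had 287 UMIs in 115 WT cells and 4 UMIs in 3 KO cells. Its log2 ratio was -2.93 (-4.82 to -1.56), whereas in all gated cells it was -1.32, with 22 KO UMIs.

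Igkc, the immunoglobulin kappa constant gene, had 276 UMIs in the remaining WT cells and 0 in KO, a log2 ratio of -3.29 or lower against the floor. Igkc made up 5683 CPM of WT free RNA and 82.6 CPM of KO free RNA, and its level in the gated cells was far lower than in free RNA. With the free RNA profile subtracted from the sums of all gated cells the log2 ratio of Igkc was 2.07, the opposite sign. All KO UMIs of Igkc in that sum lay in the mast or innate lymphoid gene-high cells, since the remaining KO cells had 0. The value of 2.07 therefore does not describe the remaining cells. In all gated cells the direction of Igkc depended on how free RNA was treated.

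**Figure D3:**
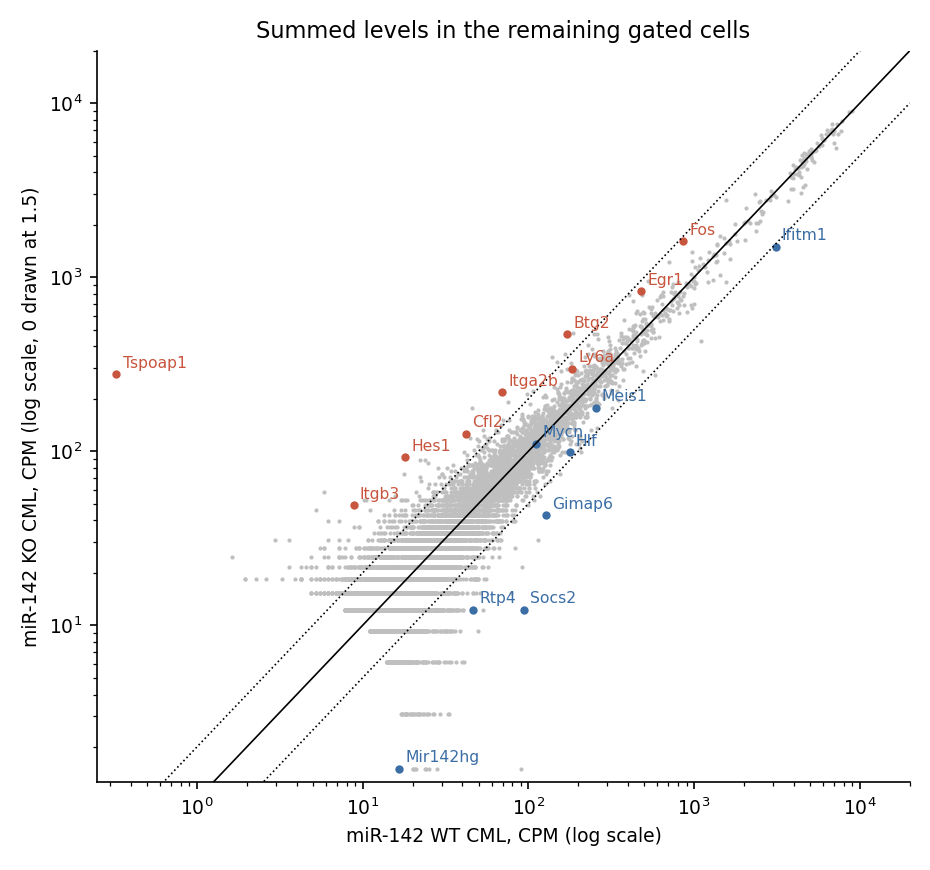
Level of each measured gene in the remaining gated cells, as CPM of the summed UMIs on log axes, in WT (x) and KO (y), with lines at equal level and at a 2-fold difference. Labelled genes are some of those named in the text, red where higher in KO and blue otherwise, and Mir142hg, with no KO UMI, is drawn at the bottom.

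Stem cell transcription factors did not move as one. In all gated cells 6 of 23 measured factors were above 0 (43.1% of all genes), 3 were at least 1.5-fold higher (14.6%) and 10 at least 1.5-fold lower (16.6%), with a median of -0.54. Outside the mast and innate lymphoid subsets the median was -0.02, with 10 of 24 above 0 (52.1% of all genes), 1 at least 1.5-fold higher (14.3%) and 2 lower (13%). Hlf had 543 UMIs in WT and 32 in KO, or 177 and 98.4 CPM, a log2 ratio of -0.85 (-1.41 to -0.34). Meis1 had 780 and 58 UMIs (-0.51, -0.93 to -0.13) and Etv6, an Ets factor needed by adult HSCs, 384 and 27 (-0.59, -1.22 to -0.03). Mycn stood at -0.01 (-0.55 to 0.49), whereas with the subsets included Hlf, Meis1 and Mycn stood at -1.19, -0.73 and -0.69. In the remaining cells Lmo2, a bridging factor of the Scl complex, stood at -0.02 (-0.25 to 0.21). Ikzf2 (Helios) was higher in KO, at 277 and 50 UMIs (0.77, 0.30 to 1.20).

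Hlf also varied along the gate. In WT without the subsets it went from 158 CPM in cells just outside, with 2 stem cell genes, to 163 CPM at 3 genes, 200 CPM at 4 and 220 CPM at 5 or 6. In KO it was 83.9 CPM at 2 genes and 82.1 CPM at 3, on 62 and 24 UMIs, and in the 3 KO cells with 4 it was 243 CPM, on 8 UMIs. At the granule limit, Hlf was 241 CPM in WT cells with 8 to 10 granule UMIs per 10000 and 273 CPM in those just outside, with 10 to 12. The corresponding KO values were 176 and 115 CPM, on 14 and 7 UMIs. At the megakaryocyte limit, WT cells with 2 of the genes had 134 CPM and those with 3 had 108 CPM. The gate genes themselves differed in which carried a cell through: of the remaining cells Procr was detected in 57.6% in WT and 17.2% in KO, Slamf1 in 24.2% and 44.8%, and Mecom in 85.3% and 86.2%.

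Among surface and signaling genes of stem cells, outside the subsets 16 of 28 measured genes were above 0 (52.1% of all genes), 7 stood 1.5-fold or more higher in KO (14.3%) and 4 lower (13%), with a median of 0.08. Itga2b, the megakaryocyte integrin CD41, had 213 UMIs in WT and 71 in KO (1.65, 1.24 to 2.04), and Cd63, a granule tetraspanin, 1234 and 258 (0.98, 0.78 to 1.17). Ifitm1, an interferon-inducible membrane protein, had 9496 UMIs, or 3100 CPM, in WT and 488 UMIs, or 1500 CPM, in KO (-1.05, -1.18 to -0.92). Sult1a1, a sulfotransferase enriched in HSCs, had 102 and 5 UMIs (-1.12, -2.77 to 0.15). Ly6a, which encodes the sort marker Sca-1, had a ratio of 0.70 (0.37 to 1.01), against 2.08 in all gated cells, where the remaining cells held 97 of the 461 KO UMIs. Kit and Cd34 were near level, at -0.09 (-0.62 to 0.39) and 0.07 (-0.25 to 0.37), against 0.83 and -0.43 in all gated cells.

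Megakaryocyte genes outside the gate were higher in KO. Of 9 measured, 8 were at least 1.5-fold higher in the remaining cells (14.3% of all genes) and 0 lower (13%), with a median of 0.91. In all gated cells 6 were higher (14.6% of all genes) and 1 lower (16.6%), with a median of 1.86. Itga2b and Itgb3 were given above, and Plek, the platelet kinase substrate pleckstrin, had 73 and 29 UMIs (1.90, 1.23 to 2.54). Selp, the platelet adhesion molecule P-selectin, had 119 and 24 (0.93, 0.23 to 1.57). The gate had capped 5 other megakaryocyte genes, so the range of this list was limited by selection in both libraries. Lymphoid priming genes were mixed, with a median of 0.13 over 12 genes. Satb1, a chromatin organizer, had 52 and 17 UMIs (1.62, 0.74 to 2.44), and Cd52 had 230 and 62 (1.34, 0.91 to 1.75), while Flt3 stood at -0.05 (-1.23 to 0.94).

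Quiescence genes had a median of 0.17 over 16 measured, with 3 at least 1.5-fold higher (14.3% of all genes) and 0 lower (13%) in the remaining cells. Cdkn1a, the cell cycle inhibitor p21, had 66 and 15 UMIs (1.10, 0.18 to 1.92). Cyclin D1 (Ccnd1), which drives entry into the cycle, had 68 and 23 (1.67, 0.92 to 2.37), and its kinase partner Cdk6 stood at 0.23 (0.01 to 0.45). Of 40 S phase genes, 13 were above 0 (52.1% of all genes), 2 were at least 1.5-fold higher (14.3%) and 15 lower (13%), with a median of -0.39, and in all gated cells the median was -0.84. Mcm4, a subunit of the replicative helicase, had 254 and 13 UMIs (-1.05, -1.98 to -0.25). The gate excluded Mki67 in both libraries, and the fraction it removed differed, as given above.

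Immediate early genes, the first transcripts after a stimulus, stood higher in the gated KO cells. In all gated cells 19 of 24 measured genes of the immediate early and NF-kB list were above 0 (43.1% of all genes). Of these 24, 10 were at least 1.5-fold higher (14.6% of all genes), and the median was 0.52. Outside the subsets 20 of 24 were above 0, against 52.1% of all genes, 12 were at least 1.5-fold higher (14.3%) and 1 lower (13%), with a median of 0.62. Fos had 2641 UMIs in WT and 523 in KO (0.90, 0.76 to 1.03), Egr1 1460 and 270 (0.80, 0.61 to 0.99) and Btg2, an antiproliferative factor, 523 and 153 (1.46, 1.19 to 1.72). The Kruppel-like factors Klf2 and Klf4 stood at 1.43 (0.88 to 1.96) and 2.32 (1.38 to 3.21). Nfkbia, the NF-kB inhibitor, was the 1 gene at least 1.5-fold lower, with 328 and 18 UMIs (-0.95, -1.73 to -0.27). Any difference in how the 2 libraries were handled cannot be told apart from genotype.

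Interferon response genes went the other way once the subsets were set aside. Of 29 measured in the remaining cells, 3 were above 0 (52.1% of all genes), 0 were at least 1.5-fold higher (14.3%) and 13 lower (13%), with a median of -0.44. With the subsets included 8 of 33 were higher (14.6% of all genes) and 8 lower (16.6%), with a median of -0.08. Rtp4, an interferon-induced receptor chaperone, had 46.4 CPM (WT) and 12.3 CPM (KO), on 4 KO UMIs (-1.91, -3.81 to -0.53), and Trim30a, a ubiquitin ligase, 162 and 4 (-2.10, -4.00 to -0.72). Ifitm3, an antiviral membrane protein, had a smaller ratio of -0.44 (-0.61 to -0.27). The Gimap family of GTPases, which support lymphocyte and stem cell survival, was below 0 in all 5 measured members (52.1% of all genes were above 0). Its median was -1.07. But in all gated cells 3 of 6 were above 0 (43.1% of all genes), 1 was at least 1.5-fold higher (14.6%) and 2 lower (16.6%), with a median of -0.21. Gimap6 had 393 and 14 UMIs (-1.58, -2.46 to -0.81), Gimap1 632 and 32 (-1.07, -1.63 to -0.56) and Gimap5 204 and 8 (-1.44, -2.67 to -0.43). Gimap5 stood at 0.06 in all gated cells, where 8 of its 40 KO UMIs lay in the remaining cells. Free RNA differed in the same direction, with Gimap6 at 36.2 CPM in the WT library and 9.96 in the KO library and Rtp4 at 19.2 and 3.11 CPM. With free RNA subtracted from the sums of all gated cells the ratios were -1.22 for Gimap6 and -1.58 for Rtp4, against -1.22 and -1.57 without.

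Components of BCR-ABL signaling and outputs of STAT5 were split. In the remaining cells 20 of 28 measured genes were above 0 (52.1% of all genes), 11 were at least 1.5-fold higher (14.3%) and 3 lower (13%), with a median of 0.25. The adaptors Shc1 and Crk, which couple the kinase to downstream pathways, stood at 1.31 (0.35 to 2.18) and 1.11 (0.31 to 1.84). The highest of the 28 was cyclin D1 (Ccnd1), given above, at 1.67. The 3 at least 1.5-fold lower were the STAT5-induced feedback genes Socs2, Cish and Socs1. Cish had 156 and 5 UMIs (-1.73, -3.37 to -0.48) and Socs1 103 and 4 (-1.45, -3.35 to -0.05). With the subsets included the ratios of Cish and Socs1 were 0.79 and 1.88, since 42 and 62 of their KO UMIs came from the mast gene-high cells. Socs3, the feedback gene of STAT3, stood at 1.05 (0.54 to 1.54).

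**Figure D4:**
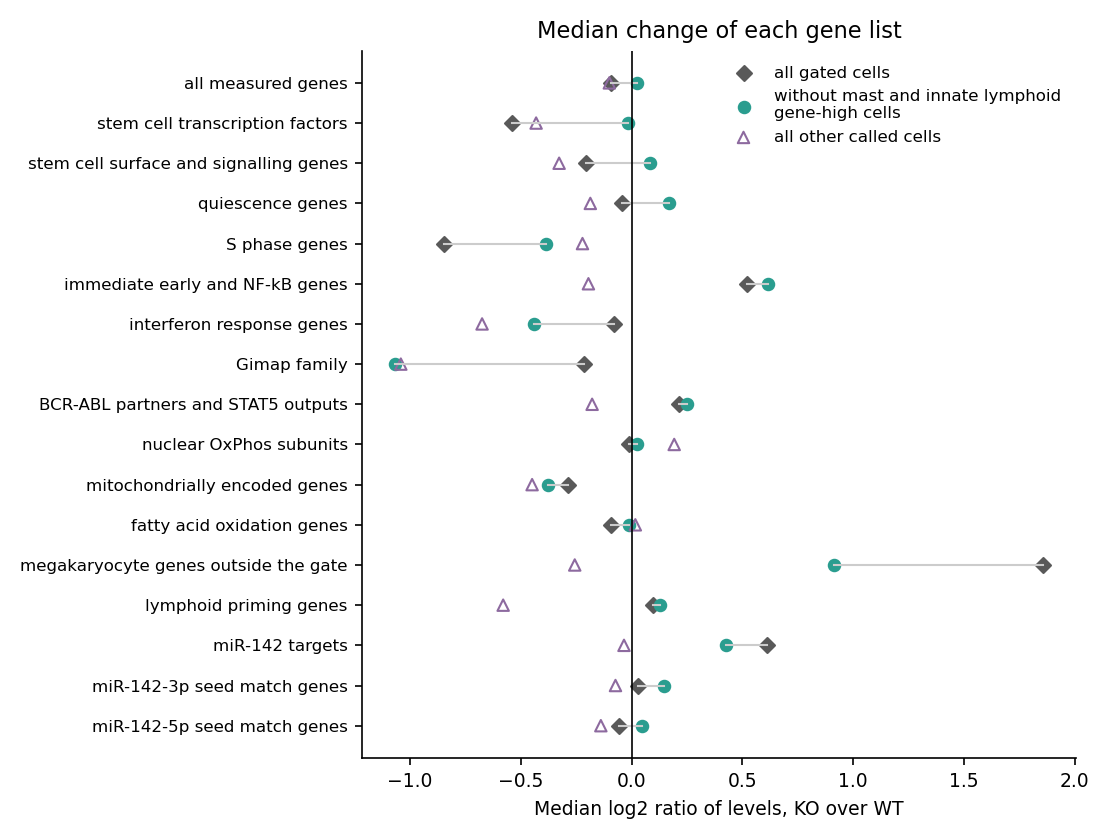
Median log2 ratio of KO over WT over the measured genes of each list, for all gated cells, the remaining gated cells and all other called cells, with a line at 0. Immediate early genes are at 0.62 and interferon genes at -0.44 in the remaining cells.

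Nuclear subunits of oxidative phosphorylation did not shift in the gated cells. Of 78 measured in the remaining cells 44 were above 0 (52.1% of all genes), 1 was at least 1.5-fold higher (14.3%) and 0 lower (13%). Of all genes at a mean of 50 CPM or more, 7.49% were at least 1.5-fold higher and 4.03% lower. The median of the 78 subunits was 0.02, against a median of 0.19 in all other called cells. Genes encoded by mitochondrial DNA were mostly lower, with 3 of 13 above 0 and a median of -0.38. Among them mt-Atp6 stood at -0.38 (-0.45 to -0.31) and mt-Co3 at -0.54 (-0.63 to -0.45), whereas mt-Co1 was at 0.17 (0.10 to 0.23). The 29 measured genes of fatty acid oxidation had a median of -0.01, with 3 at least 1.5-fold higher (14.3% of all genes) and 2 lower (13%). Cpt1a, the carnitine transferase that admits fatty acids into mitochondria, had 95 and 5 UMIs (-1.01, -2.67 to 0.26). Mfn1, a mitochondrial fusion protein, had 32 UMIs in WT and 2 in KO (-0.76, -3.87 to 1.21), too few to place its direction. Nfe2l2 (NRF2), the regulator of the antioxidant response, stood at 0.53 (-0.10 to 1.11).

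For the microRNA itself, 19 genes described in the literature as targets of miR-142 were measured. In the remaining cells 16 of 19 were above 0, against 52.1% of all genes, 7 were at least 1.5-fold higher (14.3%) and 2 lower (13%), with a median of 0.43. With the subsets included the counts were 14, 10 and 1 (43.1%, 14.6% and 16.6% of all genes), with a median of 0.61. The median in all other called cells was -0.03. The highest were 2 regulators of actin filaments. Cfl2 (cofilin 2) had 129 UMIs in WT and 41 in KO (1.58, 1.04 to 2.10), and Twf1 (twinfilin 1) had 87 and 26 (1.49, 0.80 to 2.14). Wasl, the activator of actin branching N-WASP, had 71 and 14 UMIs (0.89, -0.05 to 1.73), and Rac1, a small GTPase, stood at 0.32 (-0.11 to 0.72). Socs1 and Cpt1a were the 2 at least 1.5-fold lower, and Tgfbr2, a receptor of transforming growth factor beta, was at 21.5 CPM in both libraries, on 66 and 7 UMIs.

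Matches to the seed of the 3p strand (ACACTAC) and the 5p strand (ACTTTAT) were sought on the sense strand of the longest 3′ untranslated region of each gene in GENCODE M21. The first match in some of the genes named here is shown, to set these messages beside the seeds, with the match in capitals and GRCm38 coordinates, all on the minus strand. Cfl2 lies at chr12:54860456-54860478, Twf1 at chr15:94578184-94578206, Wasl at chr6:24616229-24616251, Rac1 at chr5:143506239-143506261, Gna11 at chr10:81530227-81530249, Msi2 at chr11:88340225-88340247 and the 5p match in Socs1 at chr16:10783829-10783851:
Cfl2: atgagtgtACACTACtgtataat
Twf1: agcctagtACACTACatcgaagt
Wasl: aatactaaACACTACttcctgtc
Rac1: attactttACACTACattgtaca
Gna11: caggtgacACACTACagggtcta
Msi2: gggcacagACACTACacaaggca
Socs1: ggtaataaACTTTATtatgaaag

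Matches of the 5p strand also lay in Tgfbr2, Mfn1 and Nfe2l2, 1 in each. A 3p match was present in 6.84% and a 5p match in 16.1% of the 7797 measured genes with such a region. Cfl2 held 2 matches of the 3p strand and Gna11 held 3. Gna11, a G-protein alpha subunit, had 48 UMIs in WT and 14 in the remaining KO cells (1.46, 0.48 to 2.34), and its ratio in all other called cells was 1.76. Msi2, an RNA-binding protein of stem cells, carried 1 match and yet stood lower in KO, at 729 and 43 UMIs (-0.85, -1.33 to -0.40), with -1.26 in all other called cells. Over all measured genes of the remaining cells the medians were 0.15 for 533 genes with a 3p match, 0.05 for 1256 with a 5p match and 0.01 for 6163 with neither. In all gated cells these 3 medians were 0.03, -0.06 and -0.11, and in all other called cells -0.07, -0.14 and -0.09. Of the 533 genes with a 3p match, 106 were at least 1.5-fold higher in the remaining cells (14.3% of all genes) and 70 lower (13%). Of the 1256 with a 5p match 188 were higher and 148 lower, and of the 6163 with neither match 831 were higher and 803 lower.

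Finally, the KO ratio in the gated cells was set beside that in all other called cells. In the remaining cells 326 of 7018 genes measured in both had a ratio at least 2-fold above that of the other cells, and 253 at least 2-fold below. Hlf stood at -0.85 in the gated cells and -2.11 outside them, a difference of 1.26 (0.74 to 1.77). Mycn stood at -0.01 in the gate and -1.53 outside, a difference of 1.52 (1.01 to 2.02). In the other cells within the granule limit, Hlf stood at -1.32 (-1.45 to -1.19) and Mycn at 0.08 (-0.06 to 0.22). Both values lay inside the gated intervals, -1.41 to -0.34 for Hlf and -0.55 to 0.49 for Mycn. Against these cells Mycn was therefore not higher in the gate. Immediate early genes had a median of 0.62 in the gate, -0.20 outside and 0.43 in other cells within that limit, while interferon genes had -0.44, -0.67 and -0.45. For megakaryocyte genes outside the gate the 3 medians were 0.91, -0.26 and 0.94, and for the miR-142 targets 0.43, -0.03 and 0.29. The cells outside the gate held more granule-high cells in KO, 2004 against 527 in WT. With the comparison restricted to other cells within the granule limit, the difference for Hlf over all gated cells was 0.13 rather than 0.91, and the number of genes above was 211 rather than 398.

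**Figure D5:**
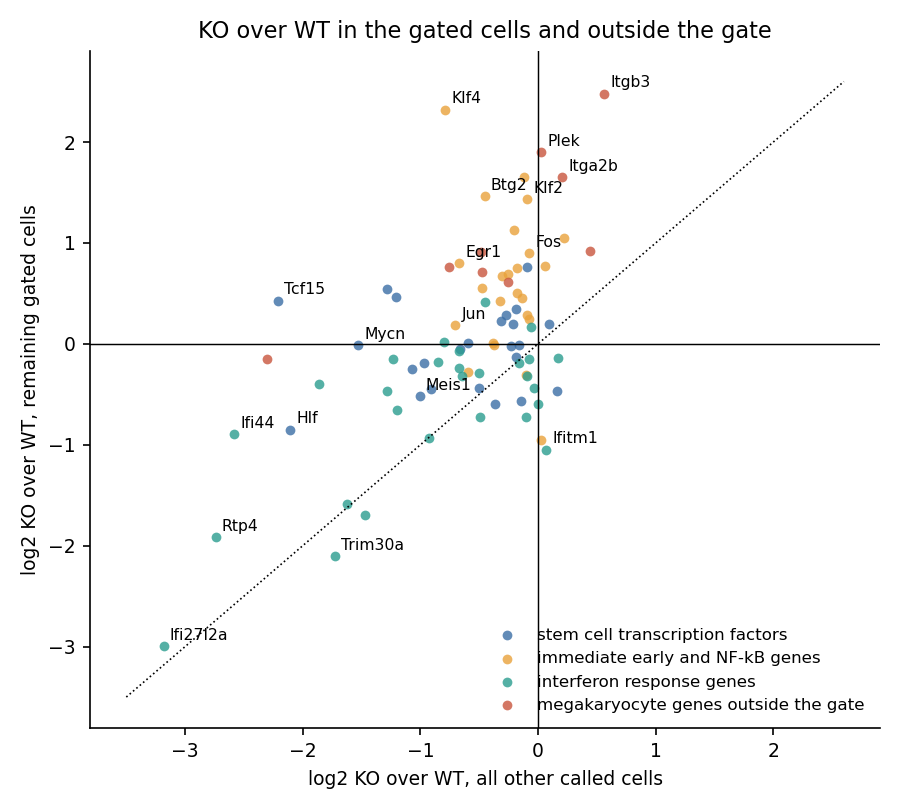
Log2 ratio of KO over WT in the remaining gated cells (y) and in all other called cells (x) for genes of 4 lists, with solid lines at 0 and a dotted line at equal ratios. Immediate early genes have medians of 0.62 (y) and -0.20 (x), Hlf lies at -0.85 and -2.11, and Mycn at -0.01 and -1.53.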

How the data were processed

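Droplet libraries (10x 3′ chemistry) were made from sorted LSK cells, and the matrices deposited by the authors hold raw UMI counts for 32285 features over all barcodes, not filtered for cells. The submitters' processing notes name Cell Ranger 6.1.2 and mm10, while the header of the matrices names Cell Ranger 4. The study kept barcodes over 300 UMIs, of which the matrices hold 9216 in WT and 7370 in KO, whereas the higher limit of 8000 UMIs was used here.

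The gate, the gene lists and the division into mast and innate lymphoid gene-high cells were chosen with earlier results of these data known. UMIs were summed per library and scaled to the sum of the cells compared (CPM), so that the quantity compared is a relative level. A log2 ratio has an exact conditional interval from the 2 counts, shares have exact Clopper-Pearson intervals, and the interval of a difference between ratios in gated and other cells is a normal approximation. With no count in one library, a floor of 3 counts over the group gives a bound. Features with a shared symbol (38) were left out. Genes were named when they were among the 12 largest or 12 smallest ratios at 20 CPM or more, among the 4 largest ratios of a list, among the 6 most different from other cells in each direction, among the 12 highest over other cells, or among the genes the study follows. Fos, Egr1, Meis1, Lmo2, Ifitm1, Ifitm3, Nfkbia, Socs3, Shc1, Wasl, Rac1, Tgfbr2 and mt-Co1 were named outside this rule, after their values were seen. A few genes that the rule or the lists hold are not reported here.

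Doublets were kept. Scrublet (scanpy 1.11.5) at its automatic threshold marked 1 WT and 0 KO cells, which is too few to be of use, and at an expected 0.8% per 1000 cells it marked 5 gated WT cells and 0 KO cells. Alternatives were the gate on thinned counts, other limits, other scaling and filters, subtraction of free RNA and removal of the doublet candidates. Python 3.11.15, numpy 2.4.6, scipy 1.17.1 and pandas 2.3.3 were used, and the steps were tested on simulated data.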

Additional observations from a re-analysis of the deposited data

Results flagged for a closer look

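In 8 genes the ratio of KO over WT in the remaining gated cells and that in all other called cells had opposite signs, with counting intervals on opposite sides of 0 and a size of at least 1.5-fold in both, and the difference was not tested because there was 1 library per group. Higher in KO within the gate and lower outside were Rabgap1l, a regulator of vesicle traffic (1.11 against -0.59), Zeb2, a transcription factor of blood lineages (1.11 against -0.67), and Apoe, a lipid carrier (0.863 against -1.003). The same held for Egr1 (0.8001 against -0.67), for Ddah2 (0.768 against -0.71), for the adaptor gene Fyb (0.721 against -0.67) and for Zfpm1, the Gata1 cofactor Fog1 (0.695 against -0.85). Gstm1, a glutathione transferase, was lower in KO within the gate (-0.804) and higher outside (1.54). Apoe rested on the most counts, 1610 UMIs in WT and 311 in KO, and Gstm1 on the fewest in KO, 296 and 18. Against other called cells within the granule limit, Gstm1 alone kept opposite signs (0.26 there), and the 7 others stood at 0.0033 for Apoe, 0.01 for Rabgap1l, 0.06 for Egr1, 0.24 for Zeb2, 0.27 for Zfpm1, 0.34 for Ddah2 and 0.38 for Fyb.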

How the results depend on the processing

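No paired analysis was possible because each group had 1 library. Of 270 values that answer a comparison, 230 moved by less than the limits used, under the settings run, and the cause of the 40 others was not tested. On counts thinned to 8000 UMIs, 126 WT and 26 KO cells passed and Mir142hg was bounded at -0.79. There 31.7% of S phase, 13.8% of interferon and 66.7% of nuclear OxPhos genes were above 0. The median over all measured genes was 0.02 there, against -0.09 in all gated cells of the main setting. In those cells 38 of 78 OxPhos genes were above 0 (43.1% of all genes). At 12000 UMIs, 122 and 23 cells passed, Mir142hg was bounded at -0.63 and 885 genes were 2-fold lower. With 4 or more stem cell genes 73 and 3 cells passed, a KO over WT ratio of shares of 0.0404, too few for levels. With a granule limit of 50 per 10000, 86 KO cells passed and 312 genes were 2-fold higher and 223 lower. Size factors placed 61.5% of OxPhos genes above 0, with a median over all measured genes of 0.0003. Filters gave 846 genes lower (5 CPM), 365 higher and 211 lower (20 CPM), 1759 and 4017 (none), and 178 and 47 (50 CPM, chosen after seeing the data). At 50 CPM, 80% of BCR-ABL and STAT5 genes were above 0 (42.7% of all genes). Without the mast and innate lymphoid gene-high cells, also chosen after seeing the data, 29 KO cells remained (ratio of shares 0.123) and Mir142hg was bounded at -0.85. There 32.5% of S phase, 10.3% of interferon and 0% of Gimap genes were above 0 (52.1% of all genes). With the granule limit of 50 as well, 67 KO cells remained, and 148 genes were higher and 227 lower. There 43.6% of S phase, 6.45% of interferon, 0% of Gimap and 66.7% of OxPhos genes were above 0. The median over all measured genes was -0.0095. Against other cells within the granule limit 211 genes had the higher ratio, and Hlf was found in 76.4% of WT cells unthinned.

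Of genes at least 2-fold apart in all gated cells, the sign changed for 6. Without the mast and innate lymphoid gene-high cells Cma1 stood at -1.87, Gata3 at -0.028, Mcpt4 at -1.16 and Socs1 at -1.45. With the granule limit of 50 as well they stood at -3.32, -0.15, -0.92 and -0.60, and Fcer1a at -0.22. Igkc stood at 2.07 with free RNA subtracted. Smaller ratios changed sign too, among them Cish (0.79 in all gated cells, -1.73 without the subsets), Kit (0.83, -0.09), Gimap5 (0.06, -1.44), Cd34 (-0.43, 0.07), Esam (-0.33, 0.09) and Cdk6 (-0.09, 0.23), and Hlf stood at 0.24 with 4 or more stem cell genes, on 8 KO UMIs. With a KO sum of 325287 UMIs in the remaining cells, 3 counts make 9.22 CPM, near the limit of 10 CPM for a measured gene. There 1 KO cell can decide a value, and ratios of genes above that limit can also rest on few KO UMIs. Of all measured genes 4.89% were 2-fold or more higher and 5.43% lower, against 1.52% and 0.636% at a mean of 50 CPM or more.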

Other observations

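Further gene groups in the remaining gated cells are given as values. Early granulocyte progenitor genes, apart from those in the gate, had a median log2 ratio of 0.47 over 11 measured genes, and 0.86 in all other called cells. Of the 11, 9 were above 0 (52.1% of all genes), 4 at least 1.5-fold higher in KO (14.3%) and 0 lower (13%). Ms4a3, a marker of granulocyte and monocyte progenitors, had 54 UMIs in WT and 24 in KO (2.07, 1.31 to 2.78), and Plac8 had 2151 and 399 (0.80, 0.65 to 0.96). The granule limit of the gate acts on genes of the same program. Erythroid genes were split over 7 measured, with Gata1, the erythroid and megakaryocyte factor, at 29 and 12 UMIs (1.96, 0.86 to 2.98) and Car2, a carbonic anhydrase, at 1509 and 94 (-0.77, -1.09 to -0.47).

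The 14 measured genes of MHC class I presentation had a median of -0.16. H2-K1 and B2m, a classical heavy chain and the light chain, stood at 0.04 (-0.11 to 0.18) and -0.15 (-0.31 to 0.01), and H2-Q7, a nonclassical heavy chain, at -0.81 (-1.33 to -0.34). The interferon-inducible DNA sensor family HIN200 was below 0 in 3 of 3 measured genes (52.1% of all genes were above 0), with a median of -0.67. In all gated cells 1 of the 3 was above 0 (43.1% of all genes), with a median of -0.95. Glycolysis genes had a median of -0.11 over 20 measured, with 0 at least 1.5-fold higher (14.3% of all genes) and 3 lower (13%). Pkm, the pyruvate kinase of muscle type, had 1359 and 100 UMIs (-0.53, -0.84 to -0.24), and Ldha, which makes lactate, had 1632 and 218 (0.33, 0.12 to 0.54). The 79 measured cytosolic ribosomal proteins had a median of -0.02, with 0 at least 1.5-fold higher (14.3% of all genes) and 1 lower (13%). Of all genes at a mean of 50 CPM or more, 7.49% were higher and 4.03% lower.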
